A study of Patiria miniata with 46 samples.

Results

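The 4 inner sections of an arm of the bat star Patiria miniata (sections 3 to 6) were compared with the 4 outer sections of the same arm (sections 1, 2, 7 and 8). These are the 8 oral-aboral libraries of a series of 46, chosen by section number alone. The series was cut from arms of young animals that were embedded, frozen and sliced on a cryostat, and polyadenylated RNA of each slice was sequenced. No treatment or genotype is named in the labels, and every oral-aboral section came from specimen 1. Each position was sampled once, so the 4 sections of a side are neighbouring positions of 1 arm and not replicate animals, and every p-value below measures the spread between sections. The labels number the sections from 1 to 8 without saying which of the outer faces is oral. The outer sections are therefore called by number, as the face of sections 1 and 2 and the face of sections 7 and 8. A whole slice of an arm holds many tissues, so fewer cells of a type and less RNA per cell cannot be told apart.

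A sea star arm is a body wall around a hollow. The oral side carries the ambulacral groove, with the radial nerve cord and the tube feet, the aboral side carries skeletal plates and skin, and the digestive glands and gonads lie between them. The file names 66 genes, nearly all of them regulators of development: transcription factors that specify regions or tissues, and the ligands, receptors and secreted antagonists of the Wnt, BMP, Hedgehog and FGF pathways. A ligand binds a receptor on a nearby cell, and a secreted antagonist keeps ligand and receptor apart, so the place where each is transcribed helps to define where a pathway can act. All other loci carry an assembly identifier and no name, and no coordinates are given.

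The inner libraries held between 2573762 counts (section 6) and 6921408 counts (section 3), and the outer ones between 3774958 (section 7) and 6292484 (section 1), so the depths of both sides overlapped. Between 21122 and 22499 loci were detected per section. Levels are given as normalised CPM, counts per 1000000 of the library after TMM scaling (trimmed mean of M values) within the 8 sections. A count of 0 allows up to 0.419 normalised CPM in the deepest section on this scale and 1.10 in the shallowest, for counting error only.

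The inner sections were alike, and the outermost sections of the opposite faces resembled each other more than either resembled the middle. Across the 20395 loci tested, the Pearson correlation of log2 CPM was 0.948 to 0.979 between any pair of inner sections. Section 1 correlated at 0.929 with section 8, on the far side of the arm, but at 0.811 with section 3 and 0.758 with section 6. Section 8 correlated at 0.752 with section 4. Section 2 stood between, at 0.952 with section 3 and 0.904 with section 1, and so was closer to its inner neighbour than to the other section of its own face. Section 7 stayed with its face, at 0.945 with section 8 and 0.866 with section 6. These values are across loci of libraries of 1 arm and are descriptions.

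**Figure D1:**
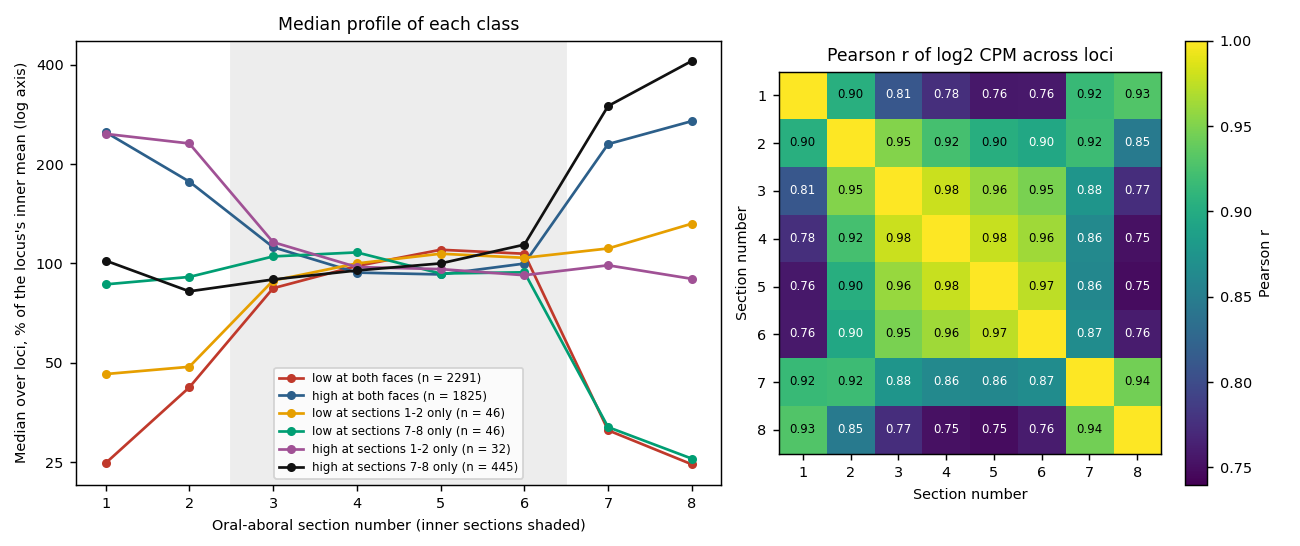
Left, the median level of each class of loci in each oral-aboral section, as a percentage of the locus's own mean over inner sections 3 to 6 (log axis, inner sections shaded). Right, the Pearson correlation of log2 CPM between sections across 20395 loci. The classes were defined from these sections, so the left panel describes them: loci low at both faces fall to 24.8% at section 1 and 24.6% at section 8, and sections 1 and 8 correlate at 0.93.

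Inner and outer sections differed at a large share of loci. Of 20395 loci tested, 4385 were higher and 3781 lower in the inner sections (edgeR quasi-likelihood test, adjusted p under 0.05), which is 40.0% of all loci in either direction, 21.5% higher and 18.5% lower. The median log2 difference over all loci was 0.02. With no scaling beyond the total count the median was 0.19, and 4681 loci were higher and 2422 lower. Without section 4 the counts were 2962 higher and 2226 lower, and without section 5 they were 2921 and 2240. These shares are the background for every count of named genes below.

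Fitting both faces apart separated loci low at both faces from loci low at 1 face. The inner sections were higher than sections 1 and 2 at 3027 loci (14.8%) and higher than sections 7 and 8 at 4295 loci (21.1%). They were lower than sections 1 and 2 at 13.6% of loci and lower than sections 7 and 8 at 19.7%. In all, 2291 loci (11.2%) passed both tests and were low at both faces. Only 46 loci (0.226%) were low at sections 1 and 2 alone, meaning that the inner sections and sections 7 and 8 both exceeded that face while inner sections and sections 7 and 8 were not called apart. Another 46 (0.226%) were low at sections 7 and 8 alone by the same rule. In the other direction, 1825 loci (8.95%) were high at both faces, 32 (0.157%) at sections 1 and 2 alone and 445 (2.18%) at sections 7 and 8 alone. A further 81 loci (0.397%) climbed in steps from sections 1 and 2 through the inner sections to sections 7 and 8, and 4 (0.0196%) climbed the opposite way. Scaled by total count alone, 31 loci were low at sections 1 and 2 alone and 490 at sections 7 and 8 alone. In the high classes of 1 face the counts were then 282 and 314, so the difference between the faces depended on the scaling. The TMM factors were 0.871 and 0.774 in sections 7 and 8, and 1.02 to 1.12 in the other sections.

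The classes of 1 face need a called difference between faces of 2 sections each. In simulated counts with a log2 change of 2, 42% of loci lowered at sections 7 and 8 only reached their class. For loci lowered at both faces it was 72%, so the class counts are not directly comparable. Another 5148 loci (25.2%) passed at least 1 test and fell in no class, and 10477 (51.4%) passed none. Of the 5148, 1954 were higher inside than at sections 7 and 8, 609 were higher inside than at sections 1 and 2, 1662 were lower inside than at sections 7 and 8 and 917 were lower inside than at sections 1 and 2, in each case with neither of the other tests passed. The counts of the face tests moved with single sections. Without section 1, section 2 alone stood for its face and 0 loci were called against the inner sections with edgeR (5286 had an unadjusted p under 0.05), so both classes shared by the faces were empty. Without section 8, 481 loci were low and 1170 high at both faces, and 0 differed between faces (2390 with an unadjusted p under 0.05). Without section 8, 2597 loci differed between the inner sections and section 7 alone. Leaving out section 4, 5 or 6 left 2104, 2248 or 3110 loci called against sections 1 and 2, 278, 326 or 432 between faces, 824, 842 or 1169 loci low at both faces and 668, 736 or 1043 high at both. The count high at sections 7 and 8 alone was 96 without section 2, 211 without section 4, 251 without section 5, 288 without section 3, 978 without section 1 and 0 without section 8.

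**Figure D2:**
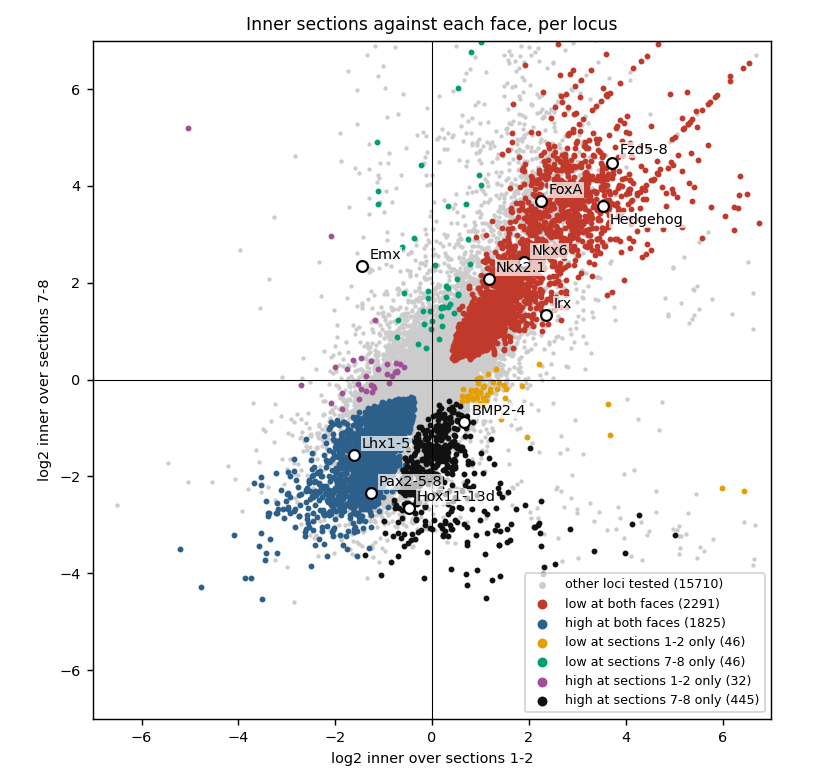
Each point is a locus, placed by its fitted log2 ratio of the inner sections over sections 1 and 2 (horizontal) and over sections 7 and 8 (vertical). Colours mark the 6 classes, open circles 11 named genes, and 56 loci beyond 7 on either axis are not shown. Loci low at both faces fill the upper right (2291) and loci high at both faces the lower left (1825), while classes of 1 face lie along the axes.

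The loci low at both faces shared a dome-shaped profile. Relative to the inner mean of each locus, the median was 84.1%, 98.2%, 110% and 107% in sections 3 to 6, against 24.8% in section 1, 42.1% in section 2, 31.2% in section 7 and 24.6% in section 8. The levels were thus lowest in the outermost sections: section 1 was below section 2 at 90.0% of these loci (51.1% of all loci tested), and section 8 was below section 7 at 73.1% (46.3% of all). The highest section was 5 for 1040 of the 2291 loci, 6 for 883, 4 for 278 and 3 for 90. Loci high at both faces had the mirrored profile, with medians of 112%, 93.8%, 92.6% and 99.9% in sections 3 to 6, against 250% in section 1, 177% in section 2, 230% in section 7 and 270% in section 8.

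Of the 66 named genes, 63 had enough counts to be tested. Dlx had 2 counts in the 8 sections, Rx 2 and Hox11-13e 1, and they were not tested. Of the 63, 17 were higher and 10 lower in the inner sections and 36 did not pass, against a background of 21.5% higher and 18.5% lower. The median log2 difference of the 63 was 0.42, against 0.02 over all loci. All 4 inner sections lay above all 4 outer sections for 16 of them (22.8% of all loci) and below them for 6 (16.3% of all loci). By class, 10 were low at both faces, 5 high at both, 2 high at sections 7 and 8 alone and 1 stepped up to sections 1 and 2, while none was low at 1 face alone.

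The 4 listed gut-associated and Nkx transcription factors, FoxA, Nkx2.2, Nkx2.1 and Nkx6, all rose in the inner sections, against 21.5% of all loci. Their median log2 difference was 2.46, against 0.02 over all loci. FoxA, a forkhead factor of the endoderm, had 489, 534.5, 542.6 and 480.8 normalised CPM in sections 3 to 6, against 22.8, 192, 67.3 and 12.6 in sections 1, 2, 7 and 8. The inner values were close together and none overlapped the outer ones, but section 2 held far more than section 1. The inner mean was 511.7 ± 31.3 and the outer mean 73.7 ± 82.4 (SD, n = 4 sections each), a log2 difference of 2.80 ± 0.75 (SE, adjusted p = 0.0197). FoxA passed against sections 7 and 8 (adjusted p = 0.0194) but not against sections 1 and 2 (log2 difference 2.26 ± 0.88, adjusted p = 0.0867), so it was not placed in the class low at both faces. Without section 7 its adjusted p was 0.0539, with a log2 difference of 2.71.

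Nkx2.2, a homeobox factor of neural and endocrine territories in vertebrates, had 119, 148, 217 and 216 normalised CPM in sections 3 to 6, against 2.07, 33.7, 12.2 and 2.32 in sections 1, 2, 7 and 8. Its inner sections held 93.3% of the normalised signal summed over the 8 sections. The log2 difference was 3.81 ± 0.85 (SE, adjusted p = 0.00992), and both faces were low.
Nkx6, another homeobox factor, had 21.1, 27.5, 43.8 and 40.7 normalised CPM inside, against 7.56, 10.3, 6.39 and 5.90 outside. Its log2 difference of 2.13 ± 0.29 (adjusted p = 0.00303) carried the smallest p of any named gene.
Nkx2.1, a factor of the vertebrate thyroid and ventral forebrain, had 131, 171, 150 and 172 normalised CPM inside, against 72.4, 65.7, 40.2 and 33.7 outside, a log2 difference of 1.55 ± 0.26 (adjusted p = 0.00433). It was low at both faces, and lower at sections 7 and 8 than at sections 1 and 2.

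Hedgehog, the secreted ligand of its pathway, was also low at both faces. It had 31.2, 45.0, 63.6 and 58.6 normalised CPM in sections 3 to 6, against 0.296, 8.94, 5.48 and 2.95 in sections 1, 2, 7 and 8. The inner sections held 1107 counts and the outer sections 74. The log2 difference was 3.53 ± 0.68 (SE, adjusted p = 0.00637), and that against each face was nearly the same, 3.53 ± 0.89 for sections 1 and 2 and 3.58 ± 0.92 for sections 7 and 8.

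**Figure D3:**
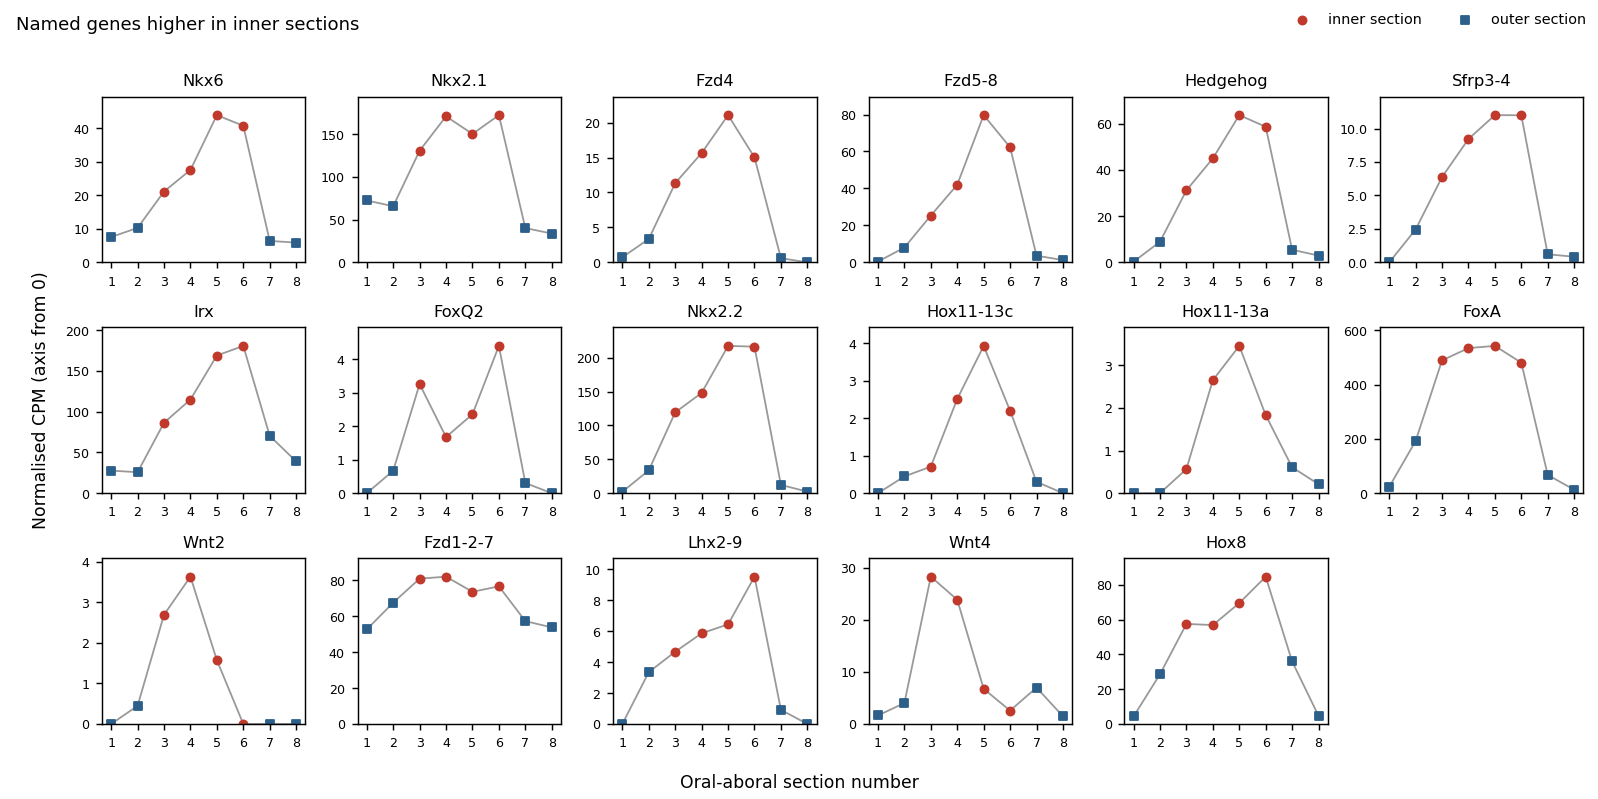
Normalised CPM of the 17 named genes higher in the inner sections, by oral-aboral section number, each on its own axis from 0. Red circles are inner and blue squares outer sections. For 14 of them every inner section lies above every outer one, while Hox11-13a, Wnt2 and Wnt4 overlap. The 17 were chosen by the same comparison, so this only describes them. Over all loci tested, 22.8% had every inner section above every outer one.

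Among the called Wnt receptors and antagonists, all but Dkk3 rose in the inner sections. Of the 8 receptors and antagonists tested, 4 rose in the inner sections (Fzd4, Fzd5-8, Fzd1-2-7 and Sfrp3-4), 1 fell (Dkk3) and 3 did not pass, and the median log2 difference was 0.98. Over all loci, 21.5% were higher and 18.5% lower. Fzd5-8, a Frizzled receptor, had 25.4, 42.0, 79.7 and 62.3 normalised CPM in sections 3 to 6, against 0.445, 8.04, 3.65 and 1.26 in sections 1, 2, 7 and 8. Fzd4, another Frizzled receptor, had 11.3, 15.6, 21.1 and 15.0 inside, against 0.741, 3.35, 0.609 and 0 outside. Sfrp3-4, a secreted protein that binds Wnt ligands, had 6.37, 9.22, 11.0 and 11.0 inside, against 0, 2.46, 0.609 and 0.422 outside. These 3 genes were low at both faces, with section 2 the highest outer section in each. Their log2 differences were 4.01 ± 0.74 for Fzd5-8 (SE, adjusted p = 0.00553), 3.74 ± 0.65 for Fzd4 (adjusted p = 0.00482) and 3.48 ± 0.69 for Sfrp3-4 (adjusted p = 0.00678).

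Among the other receptors and antagonists, Fzd1-2-7 rose little, Sfrp1-5 rose without passing over both faces and Dkk3 fell. Fzd1-2-7 had 73.5 to 82.0 normalised CPM inside and 52.6 to 67.5 outside, and differed by a log2 value of 0.44 ± 0.12 (adjusted p = 0.0236), a call lost without section 1, 3, 4, 7 or 8 (log2 difference 0.32 to 0.42, adjusted p 0.0510 to 0.102). Sfrp1-5 averaged 103.5 ± 35.8 normalised CPM inside and 36.2 ± 30.3 outside (SD, n = 4 sections each), and did not pass (log2 difference 1.52 ± 0.56, adjusted p = 0.0563). Without section 2, at 79.3 its highest outer section, the log2 difference was 2.27 with an adjusted p of 0.00286. Sfrp1-5 also passed with all sections under limma-trend, the DESeq2 Wald test, the fit of 3 groups and the section covariate (1.49 to 1.80, adjusted p 0.0266 to 0.0305). In the fit of 3 groups it passed against sections 7 and 8 (2.21 ± 0.69, adjusted p = 0.0345). It did not pass against sections 1 and 2 (1.07 ± 0.63, adjusted p = 0.223). Dkk3, named for the Dickkopf family of secreted antagonists, was higher at both faces, with 12.6, 4.33, 7.07 and 4.03 normalised CPM inside, against 22.7, 17.4, 17.7 and 19.0 outside (log2 difference -1.42 ± 0.34, adjusted p = 0.0131). Without sections 1 and 8 Dkk3 did not pass (-1.34, adjusted p = 0.0535). Fzd9-10 and Dkk1-2-4 did not pass. Fzd9-10 had a log2 difference of 0.55 (adjusted p = 0.0261) without section 2.

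Of the 10 Wnt ligands, 2 rose in the inner sections (Wnt2 and Wnt4), 1 fell (Wnt3) and 7 did not pass, with a median log2 difference of 0.97. Shares over all loci were 21.5% higher and 18.5% lower. Each of the 3 calls was lost without some single section. Wnt4 had 28.3, 23.9, 6.76 and 2.57 normalised CPM in sections 3 to 6, against 1.63, 4.02, 7.00 and 1.48 outside, so only sections 3 and 4 stood clear. Its log2 difference of 2.24 ± 0.76 (adjusted p = 0.0439) did not pass without section 1, 3, 4, 5 or 8 (log2 difference 1.78 to 2.48, adjusted p 0.0532 to 0.113). Wnt2 had 55 counts in the inner sections, all in sections 3 to 5, and 2 outside (adjusted p = 0.0197), a call lost without section 1 or 4 (adjusted p = 0.0540 and 0.0561). Wnt3 had 43.5, 15.8, 9.74 and 16.5 normalised CPM inside, against 38.5, 48.7, 50.5 and 72.9 outside. Its section 3 was thus at the outer level, and its log2 difference of -1.29 ± 0.44 (adjusted p = 0.0437) did not pass without section 4, 5, 6, 7 or 8 (log2 difference -1.37 to -1.05, adjusted p 0.0694 to 0.113).

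Several ligands that did not pass over both faces peaked in section 3 or 4, and section 2 was within their inner range. Wnt6 had 45.0, 25.7, 17.0 and 11.0 normalised CPM in sections 3 to 6, against 9.33, 41.8, 3.04 and 0 in sections 1, 2, 7 and 8 (log2 difference 0.88 ± 1.03, adjusted p = 0.522). Wnt7 had 39.8, 48.3, 16.2 and 6.60 inside, against 9.48, 39.1, 4.57 and 0.211 outside. Wnt1 had 26.1, 16.3, 7.70 and 8.06 inside, against 0.445, 7.82, 2.44 and 0 outside (log2 difference 2.52 ± 0.90, adjusted p = 0.0517). In the fit of 3 groups, Wnt6, Wnt7 and Wnt1 passed against sections 7 and 8 (adjusted p = 0.0246, 0.0428 and 0.0488). The log2 differences were 4.23 ± 1.19, 3.72 ± 1.23 and 3.81 ± 1.31 in that order. None of them passed against sections 1 and 2 (-0.0078, 0.24 and 1.965, adjusted p = 0.996, 0.860 and 0.168), and their faces were not called apart. Over both faces, without section 2, the log2 difference was 2.49 for Wnt6 (adjusted p = 0.0374), 2.51 for Wnt7 (adjusted p = 0.0434), 4.22 for Wnt1 (adjusted p = 0.00385) and 3.46 for Wnt16 (adjusted p = 0.0173). Wnt1 also passed with section 2 kept in 4 alternatives, namely limma-trend, the DESeq2 Wald test, the fit of 3 groups and the section covariate (log2 difference 2.42 to 3.01, adjusted p 0.0249 to 0.0418). Wnt9 was called lower inside without section 8 (log2 difference -1.04, adjusted p = 0.00788), while Wnt5 and Wnt10 did not pass in either case.

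Hox genes, which mark positions along body axes, did not move as a group. Of the 12 tested, 3 rose in the inner sections (Hox8, Hox11-13a and Hox11-13c), 2 fell (Hox5 and Hox11-13d) and 7 did not pass. These counts are near the shares over all loci, 21.5% higher and 18.5% lower. The median log2 difference was 0.10 for the 5 anterior, 1.70 for the 3 central and 0.97 for the 4 posterior Hox genes. Hox8 had 57.5, 56.8, 69.4 and 84.6 normalised CPM in sections 3 to 6, against 4.30, 28.6, 35.9 and 4.64 in sections 1, 2, 7 and 8, with no overlap (log2 difference 1.89 ± 0.66, adjusted p = 0.0474). Its call was lost without section 1, 3, 4, 5, 6 or 8 (log2 difference 1.47 to 1.96, adjusted p 0.0735 to 0.101). It was lost too with DESeq2 size factors, with no low-count filter and without the locus of the largest share (1.81 to 1.86, adjusted p 0.0511 to 0.0558). Hox9-10 had the same shape, with 21.1, 24.0, 25.1 and 29.7 inside, against 0.148, 15.9, 15.2 and 0.632 outside. Its sections 2 and 7 lay near the inner ones and it did not pass (log2 difference 1.70 ± 0.93, adjusted p = 0.174). Hox7 did not pass either (0.41 ± 0.39, adjusted p = 0.420). Hox11-13c had 54 counts inside and 3 outside (adjusted p = 0.0123), and Hox11-13a 50 and 3 (adjusted p = 0.0165). Without sections 1 and 8 neither passed (adjusted p = 0.0876 for Hox11-13c and 0.112 for Hox11-13a). Hox5 had 15.2, 15.6, 35.7 and 28.9 inside, against 73.5, 22.6, 54.8 and 75.2 outside, where section 2 overlapped the inner range. Its log2 difference of -1.25 ± 0.42 (adjusted p = 0.0425) did not pass without section 1, 3, 4, 6, 7 or 8 (log2 difference -1.35 to -1.08, adjusted p 0.0695 to 0.111).

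Of the 13 anterior and neural regulators tested, 1 rose in the inner sections (Irx), 2 fell (Lhx1-5 and Otp) and 10 did not pass, with a median log2 difference of -0.09. Over all loci tested, 21.5% rose and 18.5% fell. Irx, an Iroquois-class homeobox factor, had 86.4, 115, 169 and 181 normalised CPM in sections 3 to 6, against 27.7, 25.7, 70.3 and 39.0 outside, with no overlap and low values at both faces (log2 difference 1.76 ± 0.37, adjusted p = 0.00839), but it did not pass without sections 1 and 8 (1.45, adjusted p = 0.0574). Outside that list, FoxQ2, a forkhead factor of the apical territory in echinoderm embryos, had 62 counts inside and 4 outside and was low at both faces (adjusted p = 0.00843). Lhx2-9, a LIM homeobox factor, had 4.67, 5.86, 6.44 and 9.53 inside, against 0, 3.35, 0.913 and 0 outside. Its log2 difference of 2.68 ± 0.87 (adjusted p = 0.0381) passed in only 1 of the 8 fits that each left out a section, that without section 2. In the other 7 it was 2.08 to 2.82, with adjusted p from 0.0571 to 0.0848. Lmx and Lhx3-4 did not pass over both faces (log2 difference 0.20 and 0.37, adjusted p = 0.567 and 0.169). In the fit of 3 groups Lmx passed against sections 7 and 8 (0.75 ± 0.19, adjusted p = 0.0171). The difference between the faces of Lmx did not pass (adjusted p = 0.0585).

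Lhx1-5, a LIM homeobox factor of neural territories, had the smallest adjusted p of the 10 named genes that fell inside. It had 42.2, 34.4, 33.8 and 37.7 normalised CPM in sections 3 to 6, against 160, 64.1, 93.4 and 124 in sections 1, 2, 7 and 8. The inner values barely varied, and all lay below the lowest outer value. The inner mean was 37.0 ± 3.87 and the outer mean 110 ± 41.2 (SD, n = 4 sections each), a log2 difference of -1.58 ± 0.27 (SE, adjusted p = 0.00445). Against each face the log2 difference was alike, -1.60 ± 0.32 for sections 1 and 2 and -1.55 ± 0.32 for sections 7 and 8.

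Pax2-5-8, a paired-box factor, had 34.0, 31.6, 41.2 and 49.8 normalised CPM inside, against 127, 58.1, 143 and 253 outside (log2 difference -1.90 ± 0.40, adjusted p = 0.00821). FGF8-17-18, a secreted growth factor, had 27.6, 29.9, 21.5 and 23.4 inside, against 50.7, 41.3, 36.5 and 46.4 outside, a smaller log2 difference of -0.77 ± 0.16 (adjusted p = 0.00803). Both were high at both faces, with no overlap. In vertebrates these genes work together at the boundary between midbrain and hindbrain. Engrailed, Gbx and Msx, the other 3 of the 5 FGF and boundary genes, did not pass, and the median log2 difference of the list was -0.77. Over all loci, 18.5% were lower inside. Without section 3, its highest inner section, Msx had a log2 difference of -1.31 (adjusted p = 0.0111). Engrailed had one of -0.90 without section 6 (adjusted p = 0.0364) and -0.86 without section 8 (adjusted p = 0.0336).

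Hbn, Otp and Tbx2-3 also fell inside. Hbn, a homeobox factor, had 7.93, 5.45, 5.34 and 5.13 normalised CPM inside, against 12.6, 10.3, 11.3 and 15.2 outside, and was high at both faces (log2 difference -1.03 ± 0.21, adjusted p = 0.00701). Otp, a homeobox factor of neuroendocrine cells in vertebrates, had 2.41, 1.12, 1.73 and 1.83 inside, against 9.19, 3.58, 2.44 and 6.11 outside (adjusted p = 0.0208). Otp lost its call without section 4 or 5 (log2 difference -1.43 and -1.61, adjusted p = 0.0637 and 0.0582). Tbx2-3, a T-box factor, averaged 114 ± 29.4 inside and 180 ± 25.1 outside (SD, n = 4 sections each). Its log2 difference of -0.66 ± 0.20 (adjusted p = 0.0281) did not pass without section 4, 5 or 6 (log2 difference -0.61 to -0.59, adjusted p 0.0745 to 0.0801).

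**Figure D4:**
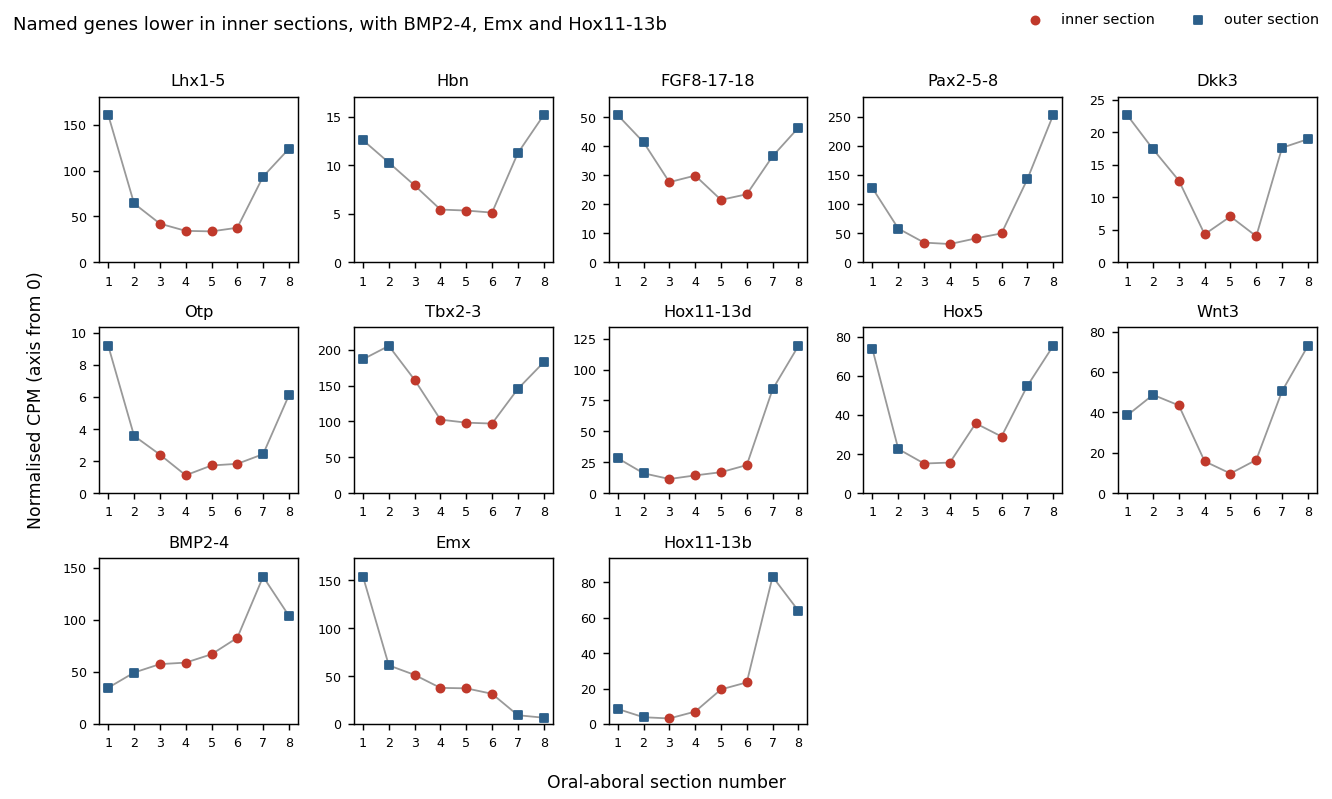
Normalised CPM of the 10 named genes lower in the inner sections, followed by BMP2-4, Emx and Hox11-13b, by oral-aboral section number, each on its own axis from 0. Red circles are inner and blue squares outer sections. Lhx1-5 and Pax2-5-8 rise towards both faces, whereas Hox11-13d, Hox11-13b and BMP2-4 are highest at sections 7 and 8 and Emx at section 1.

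A few named genes differed between the faces. Between sections 7 and 8 and sections 1 and 2, 684 loci differed (3.35%), 595 of them higher at sections 7 and 8 (2.92%) and 89 lower (0.436%). That count was 1496 without section 1 and 224 without section 2. Hox11-13d had 84.0 and 119 normalised CPM in sections 7 and 8, against 11.5 to 22.7 in the inner sections and 28.3 and 16.1 in sections 1 and 2. It was placed in the class high at sections 7 and 8 alone: the log2 difference inside was -2.65 ± 0.30 against sections 7 and 8 (SE, adjusted p = 0.00190) and -0.47 ± 0.32 against sections 1 and 2 (adjusted p = 0.287). Its call in the comparison of all inner with all outer sections (log2 difference -1.93 ± 0.59, adjusted p = 0.0302) therefore came with unequal faces. That call was lost without section 3, 4, 5, 6, 7 or 8 (log2 difference -2.11 to -1.44, adjusted p 0.0508 to 0.0797). Hox11-13b had the same outline, with 83.1 and 63.9 in sections 7 and 8, against 8.45 and 3.80 in sections 1 and 2. Its inner sections were lower than sections 7 and 8 (log2 difference -2.52 ± 0.65, adjusted p = 0.0186). The difference between its faces did not pass (adjusted p = 0.0716).

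BMP2-4, a secreted ligand of the BMP pathway, was the other gene placed there. It had 57.5, 58.9, 66.9 and 82.8 normalised CPM in sections 3 to 6, against 34.8 and 49.4 in sections 1 and 2 and 142 and 104 in sections 7 and 8. The log2 difference of the inner sections was -0.89 ± 0.22 against sections 7 and 8 (adjusted p = 0.0157) and 0.66 ± 0.23 against sections 1 and 2 (adjusted p = 0.0654). Taken over both faces it nearly cancelled (-0.31 ± 0.40, adjusted p = 0.571). Chordin, which binds BMP ligands outside cells, had 43.8, 39.8, 40.5 and 31.5 inside, against 22.1 and 34.9 in sections 1 and 2 and 13.4 and 7.17 in sections 7 and 8. Chordin was lowest at the face where BMP2-4 was highest, and passed against sections 7 and 8 (log2 difference 1.95 ± 0.31, adjusted p = 0.00363) but not against sections 1 and 2 (adjusted p = 0.232) or over both faces (1.00 ± 0.41, adjusted p = 0.0785). Without section 2 the difference of Chordin over both faces was 1.44 (adjusted p = 0.00829). With all sections it passed under limma-trend, the fit of 3 groups and the section covariate (adjusted p 0.00537 to 0.0472). Tolloid, a protease that cuts Chordin, and ADMP, another BMP-type ligand, did not pass, with log2 differences of -0.04 ± 0.31 and -0.02 ± 0.16. None of the 4 BMP pathway genes passed the comparison of all inner with all outer sections in the edgeR fit of 2 groups, and their median log2 difference was -0.03.

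Scaled by total count alone, BMP2-4 passed neither against sections 7 and 8 (log2 difference -0.52, adjusted p = 0.111) nor between faces (1.18, adjusted p = 0.0512), so that it left its class. Without section 7, BMP2-4 did not pass against sections 7 and 8 (log2 difference -0.71, adjusted p = 0.0765), and without section 2 it also passed against sections 1 and 2 (0.93, adjusted p = 0.0352). The face difference of BMP2-4 was lost without section 4, 5, 7 or 8 (log2 1.33 to 1.79, adjusted p 0.0549 to 0.0719), and that of Hox11-13d without section 2, 4, 5 or 8 (log2 1.84 to 2.19, adjusted p 0.0563 to 0.119).

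Emx, a homeobox factor of anterior territories, stepped down across the arm, with 51.3, 37.7, 37.2 and 31.5 normalised CPM in sections 3 to 6, against 154 and 61.2 in sections 1 and 2 and 9.13 and 6.53 in sections 7 and 8. All 3 groups were called apart. Its inner sections were lower than sections 1 and 2 (log2 difference -1.45 ± 0.34, adjusted p = 0.0215) and higher than sections 7 and 8 (2.35 ± 0.43, adjusted p = 0.00532). The first of these was lost without section 1, 4, 5 or 6 (log2 difference -0.67, -1.42, -1.42 and -1.35, adjusted p = 0.170, 0.0609, 0.0610 and 0.0546), and the second without section 8 (2.04, adjusted p = 0.0618). Without section 8 the difference between its faces was lost too (-3.50, adjusted p = 0.0815).

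Neither section 7 nor section 8 held a single count of Otx, Dmbx or FezF, 3 of the anterior and neural regulators. Otx had 202 counts inside, nearly all in sections 3 and 4 (15.0 and 13.0 normalised CPM), and 33 in sections 1 and 2. Dmbx had 246 inside and 64 in sections 1 and 2. Neither passed over both faces (adjusted p = 0.217 and 0.334). In the fit of 3 groups Dmbx passed against sections 7 and 8 (log2 difference 8.71 ± 2.87, adjusted p = 0.0474). Otx and FezF did not (adjusted p = 0.0989 and 0.0982). Section 2 held 5.14 normalised CPM of Otx and 13.9 of Dmbx, and inner sections 5 and 6 held 0.471 and 0 of Otx. Without section 2 Otx still did not pass, and it passed with the section number as a covariate (log2 difference 4.41, adjusted p = 0.0244). Over both faces Dmbx passed without section 2 (adjusted p = 0.00100), as did FezF (adjusted p = 0.0289). FoxG lay at the threshold, with a log2 difference of 1.73 ± 0.61 (adjusted p = 0.0505). It passed in 8 alternatives that kept all sections (1.69 to 1.90, adjusted p 0.0274 to 0.0497) and without section 2 (2.46, adjusted p = 0.00979).

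Of the loci without a symbol and without overlap, the 2 with the smallest p in each direction were examined by section. V4_HAP1_PB.25207 had 15.6, 53.5, 45.7 and 45.8 normalised CPM in sections 3 to 6, against 0.445, 0.670, 0.304 and 0.632 in sections 1, 2, 7 and 8. It was far above every outer section throughout (log2 difference 6.21 ± 0.50, SE, adjusted p = 0.00302). V4_HAP1_PB.17315 had 6.37, 7.68, 8.01 and 9.16 inside, against 0.741, 0.670, 0.913 and 1.26 outside (log2 difference 3.09 ± 0.26). In the other direction, V4_HAP1_PB.11347 had 39.6, 35.6, 40.2 and 35.2 inside, against 89.3, 91.6, 98.6 and 94.8 outside (log2 difference -1.31 ± 0.11), and V4_HAP1_PB.21003 had 39.9, 38.1, 38.8 and 43.2 inside, against 103, 120, 105 and 88.1 outside (log2 difference -1.38 ± 0.13). Loci with overlap were left out of this choice, so a step at the borders of the inner sections was fixed in advance.

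Within the inner sections no locus was called different between sections 5 and 6 and sections 3 and 4. With 4 groups of 2 sections, 0 of 20395 loci passed (edgeR quasi-likelihood test), and 1093 had an unadjusted p under 0.05. The spread in this fit came from all 4 pairs of sections, outer pairs included. Across loci the SD of the log2 difference was 1.05 between sections 1 and 2 and 0.837 between sections 7 and 8. It was 0.459 between sections 3 and 4 and 0.522 between sections 5 and 6. The 0 calls therefore cannot show that sections 3 to 6 did not differ. The smallest adjusted p of a named gene was 0.651. By fitted log2 difference the 3 steepest were Otx (-5.34), Tailless (-4.79) and Wnt10 (-3.52), all lower in sections 5 and 6. Pax6, a paired-box factor of eyes and nervous system, followed, with 20.1, 8.52, 1.41 and 1.10 normalised CPM in sections 3 to 6. Of those higher in sections 5 and 6, Hox11-13b had the largest difference (2.07), with 3.12, 6.98, 19.5 and 23.4 in sections 3 to 6.

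Transcript models of 1 locus were compared too. Of the 1925 loci with 2 models, both were tested for 1564 and both called for 329. They were called in the same direction at 285 of these and in opposite directions at 44.

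The other axes were cut from separate arms and gave readings that the classes had not used. Loci low at both faces were called higher in sections 16 to 22 than in sections 1 to 7 of the proximo-distal series, also of specimen 1, at 60.6% of the 893 tested there, and lower at 0.560%. Over all 8568 loci tested on both axes, 17.8% were higher and 17.2% lower. Loci high at both faces went the other way, with 48.4% of 1153 lower in sections 16 to 22 and 1.47% higher. Across the left-right series, of specimen 2, 15.7% of 1558 loci low at both faces were higher in central sections 6 to 11 than in the 10 outer sections and 2.12% lower, against 9.35% and 8.06% of all 14743 loci tested on both axes. Of 1548 loci high at both faces, 3.42% were higher in the central sections and 16.1% lower. The 81 loci that stepped up to sections 7 and 8 had the largest left-right share of the classes plotted: 67.5% of 77 were lower in the central sections. Scaled by total count alone, the proximo-distal shares were 32.7% of loci low at both faces higher (6.49% of all) and 75.8% of loci high at both faces lower (35.9% of all).

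**Figure D5:**
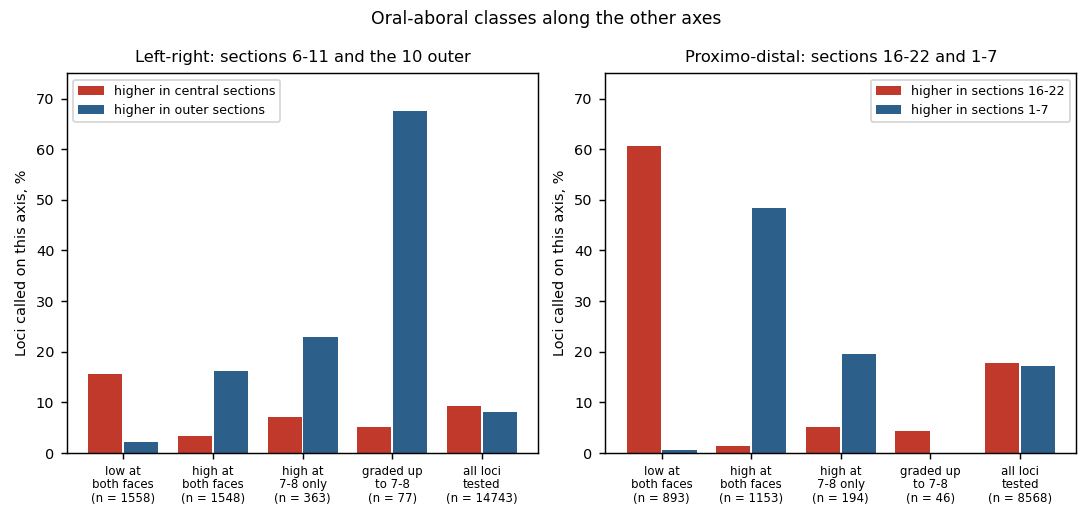
Share of loci called higher (red) or lower (blue) along the left-right axis (central sections 6 to 11 over the 10 outer) and the proximo-distal axis (sections 16 to 22 over sections 1 to 7), for 4 oral-aboral classes and for all loci tested on both axes. Of loci low at both faces, 60.6% were higher in proximo-distal sections 16 to 22, against 17.8% of all loci.

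Named genes could be followed on the same axes. Of the 17 that rose in the inner sections, 9 were tested across the left-right axis and 6 were higher in its central sections (Nkx6, Fzd5-8, Hedgehog, FoxA, Wnt4 and Hox8), with 0 lower. Among all 52 named genes tested there, 19 were higher and 9 lower. Wnt4 had the largest of these log2 differences, 3.91 ± 0.55 (SE, adjusted p = 0.000164), followed by Fzd5-8 at 3.12 ± 0.65 and Hedgehog at 2.78 ± 0.54. Of the 10 that fell inside, all were tested and 6 were lower in the central sections (Lhx1-5, Hbn, Pax2-5-8, Otp, Hox11-13d and Hox5), with 0 higher. Along the proximo-distal axis, 5 of the 8 tested that rose inside were higher in sections 16 to 22 (FoxA, Nkx2.2, Nkx6, Irx and Nkx2.1), and 5 of the 6 tested that fell inside were lower there (Pax2-5-8, Lhx1-5, FGF8-17-18, Wnt3 and Hox5). Among all 30 named genes tested on that axis, 6 were higher and 8 lower. Some genes did not keep their direction in a call: FGF8-17-18, Dkk3 and Wnt3, lower inside, had left-right log2 differences of 0.15 ± 0.18, 0.78 ± 0.53 and 0.58 ± 0.29 that did not pass.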

How the data were processed

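Sections of Patiria miniata arms were profiled from polyadenylated RNA, with Iso-Seq library preparation per the labels' protocols. The authors deposited raw counts per transcript model and library. Aligner, counter, genome build and filters: not given in the sources used here. Whether the counted reads are Iso-Seq reads was not examined. Reads carry no molecular identifiers, so floors cover counting error only.

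Of 25794 rows in 46 columns, 67 carry a symbol. One is labelled as overlapping Wnt7 and was kept out of the 66 named genes. Symbol rows carry another assembly tag than the rest, so some of their reads may also be counted in unnamed rows. Rows of 1 locus were summed, giving 23869 loci. RefSeq assembly Pmin_3.0 matched 0 identifiers. With edgeR 4.0.16 in R 4.3.3, loci were kept by filterByExpr over the 3 section groups (minimum count 5, minimum total 15), scaled by TMM and tested by glmQLFTest with Benjamini-Hochberg adjustment at 0.05 over all loci. A fit of 2 groups compared inner with outer sections, and 1 of 3 groups separated the faces. Standard errors were taken as the fitted log2 difference over the root of F. The left-right and proximo-distal series were fitted alone in the same way. Alternatives were DESeq2 1.42.0 (size factors or Wald test), limma-trend (limma 3.58.1, prior count 2), total count, other filters, unsummed models, left-out sections, covariates and the leading locus left out. The groups of 2 sections within the inner range and the count of transcript models moving apart were added after the data were seen.

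All symbol-carrying genes are accounted for, and of other loci the 2 with the smallest p in each direction without overlap are named. The genes, lists and comparisons were chosen with earlier results of these data known. The scripts were tested on simulated data, with 100 loci lowered at each size. At a log2 change of 2, 72% of loci lowered at both faces reached their class. Of loci lowered at sections 7 and 8 only, 42% did. At a log2 change of 1 it was 2% in either case. Each pair of libraries differed beyond sampling noise (chi-square per degree of freedom at least 4.66, for sections 5 and 6).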

Additional observations from a re-analysis of the deposited data

Results flagged for a closer look

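Among the inner sections, section 3 stood apart from the other 3 for Msx (18.1 normalised CPM), Hbn (7.93) and Tbx2-3 (158). The limit used is a 95% critical value, so chance sets apart about 1 in 20 such groups. It was applied to each of the 63 named genes tested, so a few groups set apart can come from chance. In each case section 3 was the highest.

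The faces differed for 4 named genes by the test of sections 7 and 8 against sections 1 and 2. The adjusted p was 0.0142 for Emx, 0.0241 for Hox11-13d, 0.0241 for BMP2-4 and 0.0461 for Nkx2.1. Nkx2.1 was lower at sections 7 and 8 (log2 difference -0.90 ± 0.19, SE), and this call was lost when any 1 section other than section 3 was left out (adjusted p 0.0661 to 0.301). It was lost too with DESeq2 size factors, with no low-count filter and without the leading locus (adjusted p 0.0540 to 0.0567).

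The row labelled as overlapping Wnt7, used in no comparison, had 52 counts over the 8 sections, with 12, 10, 11 and 3 in sections 3 to 6 and 4, 5, 3 and 4 in sections 1, 2, 7 and 8.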

How the results depend on the processing

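No paired analysis was possible because the inner and outer sections share no section number. Of the 27 named calls, 12 held in each of the 21 alternatives and 16 in each fit without 1 section, and none changed direction. With 2 sections a face, a lone remaining section was assumed to vary like the others. Without sections 1 and 8, 13 of the 27 calls were lost (Dkk3, Fzd1-2-7, Hox5, Hox11-13a, Hox11-13c, Hox11-13d, Irx, Lhx2-9, Otp, Tbx2-3, Wnt2, Wnt3 and Wnt4, adjusted p 0.0535 to 0.244). Without sections 2, 3, 6 and 7, Fzd1-2-7 and Hox11-13d were lost. Losses with all sections were Hox5, Hox11-13d, Wnt2 and Wnt4 under limma-trend (0.0552 to 0.104), Hox5, Tbx2-3 and Wnt3 under total count (0.0536 to 0.122), Hox5 and Wnt4 with depth as covariate (0.0613 to 0.125), Wnt3 and Wnt4 with the section covariate (0.0505 to 0.0512), Hox8 and Wnt4 with no low-count filter (0.0502 to 0.0558), and Hox8 with DESeq2 size factors (0.0511) or without the leading locus (0.0553). Dbx, with no call, passed in 3 alternatives (log2 0.45 to 0.64). Counts of loci that moved over 1.5 times, and shares outside their binomial interval, were these. Total count alone gave 2422 loci lower inside, 1339 differing between faces, 490 low at sections 7 and 8 alone, 282 high at sections 1 and 2 alone, and other-axis shares of 25.7% (all loci 15.9%) and 9.95% (4.72%) left-right, and 32.7% (6.49%) and 75.8% (35.9%) proximo-distal. With DESeq2 size factors 16.4% of all loci were lower proximo-distally, against 17.2%. The DESeq2 Wald test gave 1250 between faces and 81, 125, 87 and 695 in the classes of 1 face (low at 1-2, low at 7-8, high at 1-2, high at 7-8), and limma-trend 71 low at 7-8. Without sections 1 and 8, 2457 were higher and 2316 lower, 2831 differed from sections 1 and 2, 1338 and 848 were low and high at both faces, and 9, 82 and 4 low at 1-2, low at 7-8 and high at 1-2. Without sections 2, 3, 6 and 7 there were 2407 lower, 1444 between faces, 3557 and 2776 low and high at both, and 102, 93 and 137 in the same 3 classes.

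Leaving out 1 section gave 2921 to 4955 higher and 2226 to 4319 lower, 0 to 7070 against sections 1 and 2, 2597 to 8914 against sections 7 and 8, 0 to 1496 between faces, 0 to 3229 low and 0 to 2262 high at both faces, and 0 to 50, 0 to 458, 0 to 57 and 0 to 978 in the classes of 1 face. The zeros come from the fits without section 1 or without section 8, where section 2 or section 7 alone stood for a face. Fits in which section 1 or section 8 stood alone gave none.

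Genes with no call could change sign without passing. The log2 values were, for ADMP, 0.16 (total count) and 0.35 (without sections 2, 3, 6 and 7), for Dkk1-2-4, 0.0337 and 0.0865 in the same settings, and for Hox2, 0.35 in the second. Tolloid had 0.0715 (total count), 0.0767 (limma-trend), 0.16 (without 2, 3, 6 and 7), 0.0534 (3 groups) and 0.0538 (section covariate). With limma-trend, 3 groups and the section covariate, Emx had 0.48, 0.45 and 0.48, Pax6 0.17, 1.29 and 0.92, and Tailless 0.38, 1.48 and 0.75, with 1.88 for Tailless without sections 2, 3, 6 and 7. Wnt10 had 0.19 and 0.13 with 3 groups and the covariate. Without sections 1 and 8 it had 0.0177, Emx 0.0914, Fzd9-10 -0.0721, Hox3 -0.62, Six3-6 0.14 and Wnt5 -0.0828. Without 1 section the ranges that crossed zero were ADMP -0.17 to 0.0561, BarH1 -0.52 to 0.12, BMP2-4 -0.65 to 0.0306, Dkk1-2-4 -0.47 to 0.16, Emx -0.95 to 0.56, Hox1 -0.0512 to 0.43, Hox2 -0.61 to 0.13, Hox3 -0.0705 to 1.46, Hox4 -0.23 to 0.28, Pax6 -1.23 to 0.45, Tailless -1.37 to 3.29, Tolloid -0.31 to 0.20 and Wnt10 -1.28 to 0.41.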
